A study of Mus musculus with 4 samples.

Results

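DNA methylation over the genes Tox and Nfkb1 was measured by MeDIP-seq in thymic NKT cells (natural killer T cells), which recognise lipids bound to CD1d. The regions were taken by position alone: all deposited 100 bp windows overlapping each gene with 1000 bp on either side, in the mm10 build. They hold 142 windows for Tox and 271 for Nfkb1, 413 of the 1048575 windows in the table. The MeDIP library and the input library of PLZFon mice were set against those of wild-type (WT) mice. Both are C57BL/6, and the cells were sorted fresh from thymus by CD1 tetramer. PLZFon is the mice's name in the labels, which describe neither the allele nor the number, sex or age of the animals, and the series is about PLZF acetylation in NKT cell differentiation. In MeDIP an antibody against 5-methylcytosine pulls down methylated fragments of sonicated DNA, and the input is the same DNA without pull-down. A label gives no antibody for the PLZFon MeDIP library and gives one for the WT input, against the titles, which were used for the grouping. Each of the 4 groups is 1 library, so there was no replicate and no test of genotype. All 95% intervals are exact binomial intervals of counting error only, and each difference is one between 2 libraries. The assay reads DNA, so marker expression of the sorted cells was not checked here.

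TOX is a nuclear protein with an HMG box that T cell precursors need to enter the CD4 lineage, NKT cells included. NFKB1 is a subunit of NF-κB, the transcription factor that antigen receptor signals release into the nucleus, and it takes part in NKT cell maturation. In mammals most CpG sites within genes are methylated, while CpG-rich gene starts are usually free of methylation. From general knowledge, since the gene table gives no strand, both genes are transcribed from right to left in the mm10 coordinates, so that the gene start lies at the right end of each locus.

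Tox lies on chromosome 4 from 6686353 to 6991557 (305205 bp) and Nfkb1 on chromosome 3 from 135584655 to 135691969 (107315 bp). The libraries held about 10635946 reads (PLZFon MeDIP), 15143451 (WT MeDIP), 50365402 (PLZFon input) and 60689327 (WT input). A read was counted in about 4 neighbouring windows, so sums of window counts were divided by 4 to give reads. A window was listed only with at least 10 MeDIP counts over both libraries, and every listed window had at least 1 CpG site. Unlisted windows may hold reads. The number of listed windows thus depends on both MeDIP counts and CpG sites, and an unlisted stretch is not by itself a lack of MeDIP signal.

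The deposited CpG factor of a window equalled the number of CpG sites that start in it in 2642 of 2642 windows that lie within a RefSeq promoter sequence. Listed windows thus carry known CpG numbers: 283 sites in the Tox windows and 627 in the Nfkb1 windows. The RefSeq promoter table (GRCm38.p6) had 1 entry inside either locus, that of the long noncoding RNA Gm46827 within Nfkb1 (chr3:135608174-135608473, plus strand). It is shown because it is rich in CpG and no window over it was listed. CpG sites (CG, which reads the same on both strands) are in capitals.
Gm46827: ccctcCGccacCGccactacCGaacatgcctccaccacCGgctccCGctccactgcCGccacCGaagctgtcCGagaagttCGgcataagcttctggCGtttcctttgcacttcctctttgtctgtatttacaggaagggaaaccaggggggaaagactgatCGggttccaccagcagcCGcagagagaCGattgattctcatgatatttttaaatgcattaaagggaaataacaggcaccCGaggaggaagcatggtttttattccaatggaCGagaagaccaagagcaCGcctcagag
These 300 bases hold 16 CG, and 32.6% of the 15055 RefSeq promoters in the range of the table hold as many or more (94.3% hold at least 1). The nearest listed windows ended at 135606800 on the left and began at 135612401 on the right. The window 135608201 to 135608300 has 7 CG and 135608301 to 135608400 has 3, yet neither reached the list. Absence from the list is usual for such sequence: of the 4902 promoters with as many CG, 97.6% had no listed window, against 84.3% of all promoters.

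Over the whole locus no difference in MeDIP level between the genotypes was detectable for Tox. Tox had 235.5 reads in PLZFon MeDIP and 334.5 in WT MeDIP, which is 22.1 RPM in both (RPM is reads scaled to the size of the library). The ratio, PLZFon over WT, was 1.0 (95% interval 0.845 to 1.19), and in the inputs, with 4.99 RPM in PLZFon and 4.8 in WT, it was 1.04 (0.875 to 1.23). Differences within these intervals were not detectable at this depth.

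Nfkb1 gave the same picture with more reads. It had 540.2 reads in PLZFon MeDIP and 776.0 in WT MeDIP, or 50.8 and 51.2 RPM. The ratio was 0.991 (0.887 to 1.11), and the input ratio was 1.09 (0.981 to 1.22). Neither locus passed the rule used for loci and bins, which asks for at least 20 reads, a 1.5-fold difference up or down and an interval clear of equality. It was passed by 1.38% of 7667 protein-coding loci, 0.391% higher and 0.991% lower in PLZFon. By the interval alone 6.25% of those loci differed, 1.24% higher and 5.01% lower. Their median ratio was 0.959, so both genes lay slightly above the middle of all genes.

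**Figure D1:**
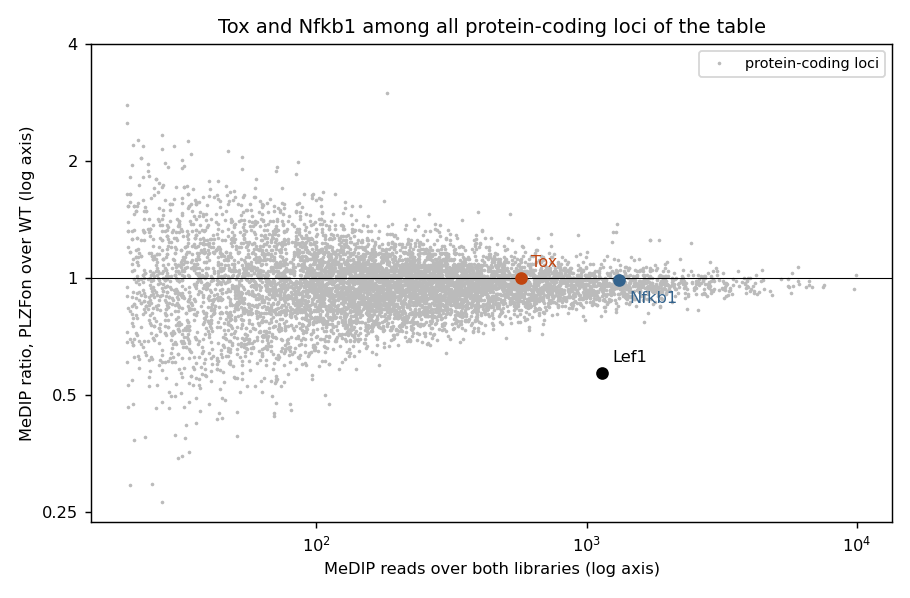
Each grey point is a protein-coding locus with at least 20 MeDIP reads, by its reads over both libraries (x, log axis) and its MeDIP ratio, PLZFon over WT (y, log axis). Tox (1.0) and Nfkb1 (0.991) lie on the line of equality, and Lef1 (0.571) lies far below it.

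The loci of Bach2, Hivep3 and Lef1 were set beside them. Bach2 had a ratio of 1.0 (0.937 to 1.07) and Hivep3 0.988 (0.919 to 1.06). Lef1, whose product acts with TCF1 in T cell precursors, had 0.571 (0.5 to 0.65). The Tox ratio was 1.76 times that of Lef1 (exact interval 1.42 to 2.19) and the Nfkb1 ratio 1.74 times (1.46 to 2.07). Lef1 was among the 0.991% of protein-coding loci that passed the rule as lower in PLZFon. These 2 values thus reflect the low ratio of Lef1 and are no result about Tox or Nfkb1. Against Bach2 and Hivep3 the ratios of ratios ran from 0.991 to 1.02, and Tox against Nfkb1 gave 1.02, all with intervals that include equality.

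The loci differed in how much of them was listed. Tox had 0.462 listed windows per kb, fewer than most genes: 8.78% of the tested protein-coding loci had a lower density, and their median was 1.51. Nfkb1 had 2.48 per kb, and 81.9% of loci had less. The surroundings of each gene resembled it in this. The 100 kb beyond the left and right ends of the Tox locus had 0.4 and 0.36 listed windows per kb, and those of the Nfkb1 locus had 2.56 and 1.74. The MeDIP ratios there were 0.893 and 0.905 beside Tox and 1.04 and 1.11 beside Nfkb1, with intervals that include equality. To the right of Nfkb1 the input ratio was 1.2 (1.05 to 1.36).

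Tox windows formed 55 separate runs of adjacent windows, of which the longest held 7, and Nfkb1 windows formed 76 runs, the longest of 8. The longest unlisted stretch of Tox was 26200 bp (6842901 to 6869100), and that of Nfkb1 was 6700 bp (135634201 to 135640900). Tox windows averaged 1.99 CpG sites, with 11.8% of loci lower, and Nfkb1 windows 2.31, with 54.8% lower. Listed windows of Tox are thus few and poor in CpG, whereas those of Nfkb1 are near the middle of the tested loci in CpG sites per window. The CpG content of the whole genes was not measured.

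Where windows were listed, MeDIP over input was alike in both genes. MeDIP reads over Tox were 4.43 times the depth-scaled input in PLZFon (3.7 to 5.32) and 4.6 times in WT (3.92 to 5.4). Over Nfkb1 the values were 4.08 in PLZFon (3.63 to 4.58) and 4.5 in WT (4.06 to 4.99). The medians of the tested loci were 3.97 in PLZFon and 4.18 in WT. By depth-scaled reads both genes thus stood above input in the PLZFon MeDIP library, which its label gives without an antibody. Windows were listed by MeDIP counts summed over both libraries and not by input, which by itself raises MeDIP over input. The WT library is the deeper and gave more of these counts. The size of this effect was not tested, so these values alone do not show that the PLZFon library was pulled down.

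Over the whole table the mean MeDIP count went up with each class of CpG number, but in the 2 genes the steps were uneven. In Nfkb1, windows with 1, 2, 3, 4 and 5 or more CpG sites averaged 6.43, 8.68, 7.34, 9.81 and 11.6 counts in PLZFon, and 9.26, 12.1, 11.6, 13.8 and 15.2 in WT. The class of 3 sites was thus below that of 2 in both. MeDIP over input in Nfkb1 was 3.47 in PLZFon and 3.72 in WT at 1 site, and 5 and 5.73 at 5 or more. In Tox, windows with 1, 2, 3 and 4 sites averaged 5.43, 7.12, 7.9 and 7.31 counts in PLZFon, and 8.63, 8.98, 10.4 and 12.8 in WT, so that PLZFon did not go up at 4 sites. The Tox locus had a single listed window with 5 sites (6945201 to 6945300), with 5 PLZFon and 10 WT counts.

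The genotype ratio did not leave equality in any CpG class of either gene. In Tox it was 0.896 (0.654 to 1.22) at 1 site, 1.13 (0.86 to 1.48) at 2, 1.08 (0.706 to 1.65) at 3 and 0.81 (0.468 to 1.37) at 4. In Nfkb1 it ranged from 0.905 (0.703 to 1.16) at 3 sites to 1.09 (0.745 to 1.59) at 5 or more. Over all listed windows the ratio fell with CpG number, to 0.928 (0.924 to 0.933) at 5 or more against 0.985 (0.982 to 0.988) at 1 site. The interval of Nfkb1 in the CpG-rich class holds the value of all windows, and so does that of Tox at 4 sites (0.945 over all).

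The SD of the log2 ratios of the Tox bins was above that of counting error, with 1 extreme bin among them. Of 32 bins of 10 kb, 25 held listed windows and 12 held at least 20 MeDIP reads, with a median of 33.9 reads. In these 12 the ratio ran from 0.509 to 3.12 with a median of 1.13, above 1 in 7 and below 1 in 5. The log2 ratios of these bins had an SD of 0.701, where counting error gives 0.522. The most extreme of them, 1.64, was that of 1 bin, 6790001 to 6800000. The SD was not taken without that bin or over other genes, so a wider spread along Tox was not tested. For the 11 bins of Nfkb1 with at least 20 reads the SD was 0.245, where counting error gives 0.304, on a median of 111.5 reads. The Nfkb1 bins thus varied no more than counting gives.

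**Figure D2:**
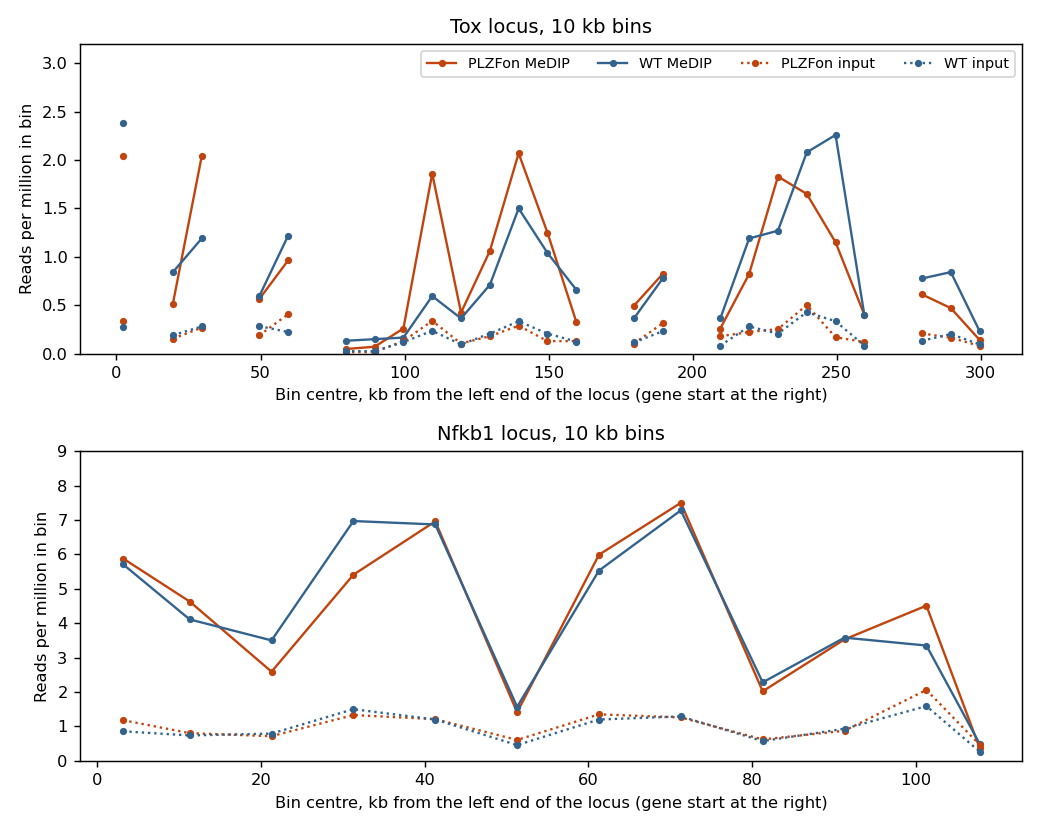
MeDIP (solid) and input (dotted) RPM in 10 kb bins (y) by distance from the left end of the locus in kb (x), for Tox and Nfkb1, with PLZFon in orange and WT in blue. A bin with no listed window has no point. PLZFon and WT MeDIP run together along Nfkb1 and cross several times along Tox, and the end bins are cut at the locus ends.

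In 1 bin of Tox, 6790001 to 6800000, there was more MeDIP signal in PLZFon than in WT. Its 9 listed windows held 19.8 reads in PLZFon and 9 in WT. The ratio of 3.12 (1.36 to 7.8) was clear of equality, and this was the 1 bin of 12 that passed the rule. Of all 60900 bins of the table, 2.08% passed it, 0.78% higher and 1.3% lower in PLZFon. Of the 29417 bins with 20 to 60 reads, a range chosen after the values were seen, 1.65% passed, 0.741% higher and 0.911% lower. A single call among 12 bins is too few to set a share against these, and it was lost (0 bins) with bins of 5 kb and with a minimum of 40 reads. The input ratio of the bin was 1.44 (0.669 to 3.13), and MeDIP over input was 5.5 in PLZFon and 2.53 in WT, the lowest WT value of the 12 bins.

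All 9 listed windows of this bin had a higher raw count in PLZFon than in WT, although the PLZFon library was the smaller. The window 6794001 to 6794100, with 2 CpG sites, had 13 PLZFon and 3 WT counts, and its neighbour 6794101 to 6794200, with 3 sites, had 14 and 6. Windows at 6794801 and 6795001 had 8 PLZFon and 2 WT counts each. The windows from 6796301 to 6796500 had 7 and 3 counts each, and those from 6798001 to 6798300 had 7 or 8 in PLZFon and 5 or 6 in WT. Neighbouring windows share reads, so these are fewer than 9 separate observations. The windows at 6794801, 6795001, 6796301 and 6796401 each held 10 MeDIP counts over both libraries, the least that is listed. With fewer PLZFon counts they would not have been listed. The bin was also named as the highest of the 12, so the shared direction of its windows is no separate support.

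The other high bins did not differ beyond counting error. The bin 6710001 to 6720000 had a ratio of 1.72 (0.879 to 3.41), on 21.8 PLZFon and 18 WT reads, and lies within the long noncoding RNA gene Gm11802, which overlaps Tox from 6700490 to 6721824. The bin 6810001 to 6820000 had 1.49 (0.587 to 3.8). At the low end, 6930001 to 6940000 held 12.2 reads in PLZFon and 34.2 in WT, and its ratio was 0.509 with an interval that just reaches equality (0.242 to 1.0). Its input ratio was 0.506 (0.198 to 1.18), on 8.5 PLZFon and 20.2 WT reads, with an interval that includes equality. MeDIP over input was 6.82 in PLZFon and 6.78 in WT. The part played by input in the MeDIP ratio of this bin was not tested. The bins at 6900001 (0.692, 0.271 to 1.63) and 6740001 (0.789, 0.33 to 1.78) followed. The bin with the most listed windows, 13 from 6920001 to 6930000, had 0.791 (0.414 to 1.46).

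When the Tox gene was divided into 4 equal parts, a division chosen after the bins had been seen, the second part from the left lay above equality and the fourth, next to the gene start, below it. The second part held 74.8 reads in PLZFon and 70.5 in WT, and its ratio was 1.51 (1.08 to 2.12). The fourth held 47 reads in PLZFon and 99.8 in WT, and its ratio was 0.671 (0.464 to 0.958). The first part had 1.04 (0.703 to 1.54) and the third 0.986 (0.67 to 1.44). The input ratios of the second and the fourth were 0.962 (0.674 to 1.37) and 0.975 (0.687 to 1.38). Over genes with at least 200 reads, 4.38% of 13254 such parts excluded equality, 1.21% higher and 3.17% lower in PLZFon, and 15 of 3556 such genes (0.422%), Tox among them, held both an upper and a lower one. Each part rested on 1 bin: without 6790001 to 6800000 the second had 1.27 (0.869 to 1.86), and without 6930001 to 6940000 the fourth had 0.755 (0.486 to 1.16). Neither part stayed clear of equality without 1 of its bins. Because the division followed from the bins, these intervals and the count of 15 genes are descriptions. They are no test of opposite differences within Tox.

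**Figure D3:**
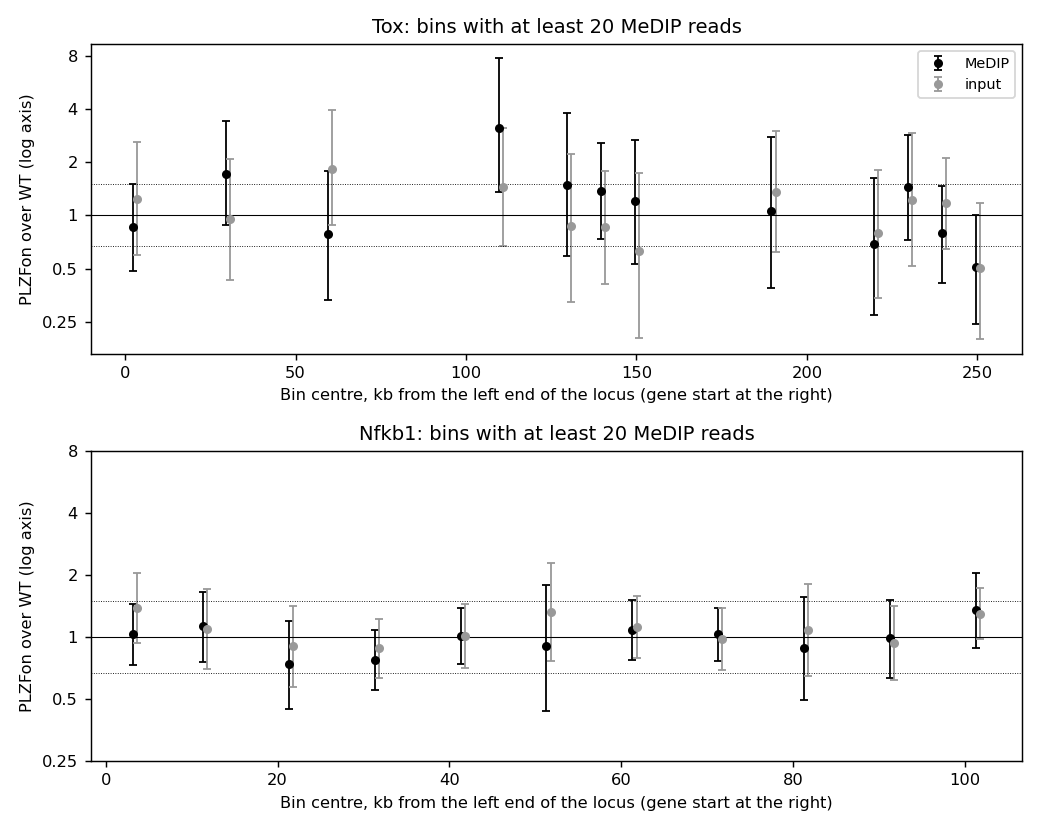
PLZFon over WT ratios (y, log axis) of MeDIP (black) and input (grey) in the 10 kb bins with at least 20 MeDIP reads, with exact 95% intervals, by distance in kb from the left end of the locus (x). Dotted lines mark 1.5-fold. In Tox 1 of 12 MeDIP intervals lies clear of equality (3.12, 1.36 to 7.8), and in Nfkb1 0 of 11 do.

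Along Nfkb1 every one of the 12 bins held listed windows, and 11 had at least 20 MeDIP reads. Their ratios ran from 0.739 to 1.35, 6 above and 5 below equality, and 0 of 11 passed the rule (2.08% of all bins) or had an interval that excludes equality (3.09% of all bins, 1.02% higher and 2.07% lower). The lowest were 135600001 to 135610000 at 0.739 (0.448 to 1.19), 135610001 to 135620000 at 0.776 (0.553 to 1.08) and 135660001 to 135670000 at 0.887 (0.493 to 1.56). The highest were 135680001 to 135690000 at 1.35 (0.888 to 2.04), 135590001 to 135600000 at 1.13 (0.759 to 1.66) and 135640001 to 135650000 at 1.08 (0.77 to 1.52). The bin from 135610001 held the most listed windows, 37. The input ratios of these 11 bins ran from 0.881 to 1.38 with intervals that include equality. By the same rule on inputs 0 of 13 Tox bins and 0 of 12 Nfkb1 bins passed, against 1.15% of all bins, 0.73% higher and 0.417% lower.

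A short stretch inside Nfkb1 had fewer MeDIP reads in PLZFon than in WT. In the windows 135615501 to 135615600, 135615601 to 135615700 and 135615701 to 135615800, which carry 1, 3 and 3 CpG sites, there were 3, 4 and 3 PLZFon counts against 17, 24 and 21 WT counts. Their ratios were 0.251 (0.0472 to 0.869), 0.237 (0.0598 to 0.691) and 0.203 (0.0388 to 0.681). The windows to their left went the same way, with 2 against 9, 3 against 12 and 3 against 13 counts from 135615201 to 135615500, and so did 135615901 to 135616000, with 1 against 9. The inputs of the first 3 windows had 7, 7 and 9 PLZFon and 10, 9 and 11 WT counts. Adjacent windows share reads, so this is 1 observation. The windows 135615201 to 135615300 and 135615901 to 135616000 held 11 and 10 MeDIP counts over both libraries, at or near the listing minimum of 10. They reached it mainly through WT. The stretch was named for its low ratios, so the direction of its neighbours is no separate support. The stretch lies to the right of Gm46827, which ends at 135613657.

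Of 109 Nfkb1 windows with at least 20 counts, those 3 were the ones past the window rule (at least 2-fold with an interval that excludes equality), all lower in PLZFon. Among all windows 3.3% of 409114 passed, 1.13% higher and 2.17% lower in PLZFon. That single direction depends on the minimum: with at least 10 counts 8 Nfkb1 windows passed, 5 higher and 3 lower, and 6 Tox windows passed, 5 higher and 1 lower. At that minimum 2.96% of all 1048575 windows passed, 1.39% higher and 1.57% lower. The 5 higher Nfkb1 windows lie in 2 places, 135599301 to 135599600 and 135688501 to 135688700, and each has fewer than 20 counts. Of 37 such Tox windows, 2 passed: 6794101 to 6794200, named above, at 3.32 (1.2 to 10.5), and 6935901 to 6936000, with 4 PLZFon and 18 WT counts, at 0.316 (0.0779 to 0.961). The input of the second of these had 4 PLZFon and 10 WT counts. Among Nfkb1 windows with at least 20 counts the highest, 135688701 to 135688800, did not pass, with 13 PLZFon and 8 WT counts and a ratio of 2.31 (0.889 to 6.44). Below that minimum 135599301 and 135599401 had 6.41 (1.33 to 60.9), 135599501 had 4.75 (1.22 to 26.8) and 135688501 had 3.08 (1.09 to 9.9). With overlapping windows, the calls at 20 counts stand for 3 places in the 2 genes.

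**Figure D4:**
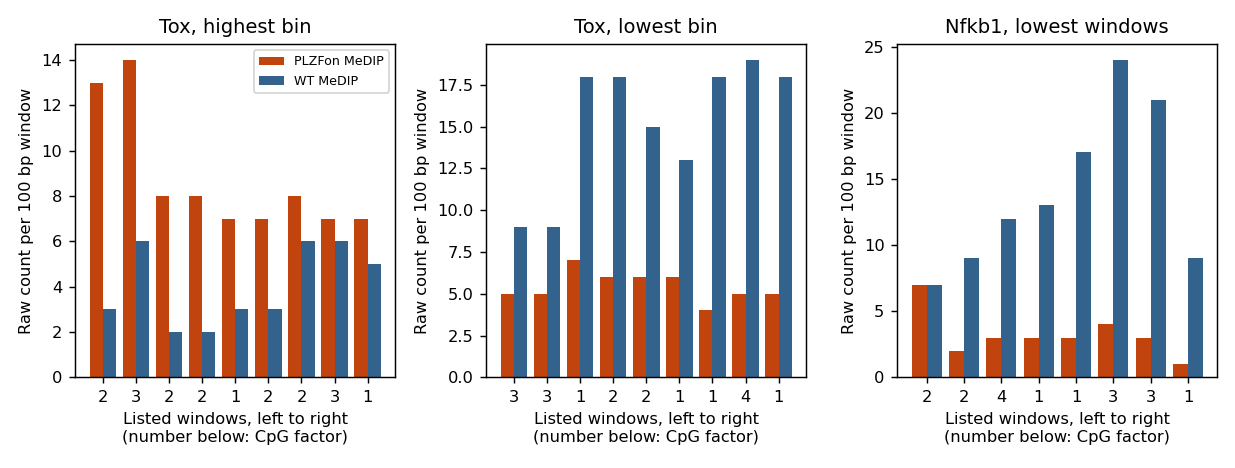
Raw MeDIP counts per 100 bp window (y) in PLZFon (orange) and WT (blue) for the listed windows, left to right (x, labelled with the CpG factor), of the highest and the lowest Tox bin and of the stretch of Nfkb1 with its lowest windows. PLZFon has 13 and 14 counts in the first windows of the highest Tox bin, against 3 and 6 in WT, and 3 to 4 in the lowest Nfkb1 windows, against 17 to 24. Counts are not scaled to depth.

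The authors' deposited table called no window of either gene at an adjusted p-value below 0.05. It called only 151 of all 1048575 windows, so the absence of calls says little about these genes. Its adjusted p-value was 1 for each of the 142 Tox and 271 Nfkb1 windows. Before adjustment, the authors' deposited table gave p below 0.05 to 6 Tox windows (5 higher and 1 lower in PLZFon) and to 9 Nfkb1 windows (5 higher and 4 lower). That is 4.23% and 3.32% of the windows, against 3.31% of the whole table. The smallest p in the authors' deposited table was 0.00236 for Tox, at 6794001 to 6794100 (log2 fold change 2.62), and 0.00436 for Nfkb1, at 135615701 to 135615800 (log2 fold change -2.21). Both are the stretches described above. Nfkb1 windows from 135599301 to 135599600, with 9, 9 and 10 PLZFon and 2, 2 and 3 WT counts, were also among the 9. The authors' relative methylation score had medians of 0.57 in PLZFon and 0.61 in WT over Tox, and of 0.57 and 0.62 over Nfkb1. Over all listed windows the medians were 0.57 and 0.63, so the lower score of PLZFon is shared by the table.

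The windows of each gene with the most MeDIP counts did not differ between genotypes beyond counting error. In Nfkb1 these lay just inside the left end, at the end of the gene, where 135585201 to 135585300, with 7 CpG sites, had 24 PLZFon and 29 WT counts (ratio 1.18, 0.657 to 2.1). The window before it, with 5 sites, had 25 in each (1.42, 0.785 to 2.58), with 14 PLZFon and 6 WT input counts (input ratio 2.81, 1.01 to 8.93). Next was 135653901 to 135654000, with 21 PLZFon and 27 WT counts (1.11, 0.595 to 2.03). The window richest in CpG, 135663801 to 135663900 with 8 sites, had 9 and 17 counts (0.754, 0.296 to 1.79). In Tox, 6822901 to 6823000 had 18 PLZFon and 22 WT counts (1.16, 0.589 to 2.28) and its neighbour 17 and 22 (1.1, 0.549 to 2.17).

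The left end of the Tox locus, beyond the end of the gene, also had a high MeDIP over input. The window 6685501 to 6685600, with 4 CpG sites, had 14 PLZFon and 23 WT counts (0.867, 0.412 to 1.76), with 3 and 0 input counts. The 6 windows from 6685401 to 6686000 together had a MeDIP over input of 10.9 in PLZFon (4.16 to 32) and 20 in WT (7.53 to 67). Their input was 6.75 reads in PLZFon and 5 in WT, so both values rest on few reads. The bin that holds them had 8.74 in WT, the highest of the 12 Tox bins, and 6.06 in PLZFon. The highest PLZFon value was 9.65, in the bin 6830001 to 6840000, where WT had 5.05.

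Few MeDIP counts were listed at either gene start. In Tox the last listed window ended 5757 bp before the gene start (6985800), and no window was listed in the last 5 kb of the gene or the 1 kb beyond. The nearest windows, 6985601 to 6985700 and 6985701 to 6985800, had 3 PLZFon and 7 WT counts each. In Nfkb1, 4 adjacent windows spanned the gene start, from 135691801 to 135692200. They had 4 PLZFon counts each and 6, 8, 8 and 8 WT counts, near the least that is listed, although they carry 5, 6, 4 and 1 CpG sites. Their inputs were high, with 20 to 29 PLZFon and 14 to 18 WT counts, where the median listed window has 9 and 11.

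MeDIP over input in the bin that holds the Nfkb1 start was 0.806 in PLZFon (0.203 to 2.35) and 1.85 in WT (0.667 to 4.65). That bin is cut at the locus end and held only 4 PLZFon and 7.5 WT MeDIP reads, under the minimum of 20. The next bin into the gene, 135680001 to 135690000, had 2.19 in PLZFon and 2.11 in WT, and the bin at 135650001 had 5.97 and 5.66. At the other end of the locus the bin from 135583655 had 4.97 in PLZFon and 6.67 in WT, the highest WT value of Nfkb1. Over the last 5 kb of the gene with the 1 kb beyond, the values were 1.89 in PLZFon (1.21 to 2.9) and 2.22 in WT (1.42 to 3.44), with intervals that lie below those of the whole locus. The MeDIP ratio there was 1.32 (0.786 to 2.21), beside an input ratio of 1.55 (1.1 to 2.2). The part played by that unequal input in the MeDIP ratio was not tested. The most input of any window in either locus was shared by 2 windows of this stretch. One, 135688501 to 135688600, had 29 PLZFon and 22 WT input counts and 13 PLZFon and 6 WT MeDIP counts. The other, 135689001 to 135689100, had 28 PLZFon and 23 WT input counts and 7 PLZFon and 8 WT MeDIP counts.

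**Figure D5:**
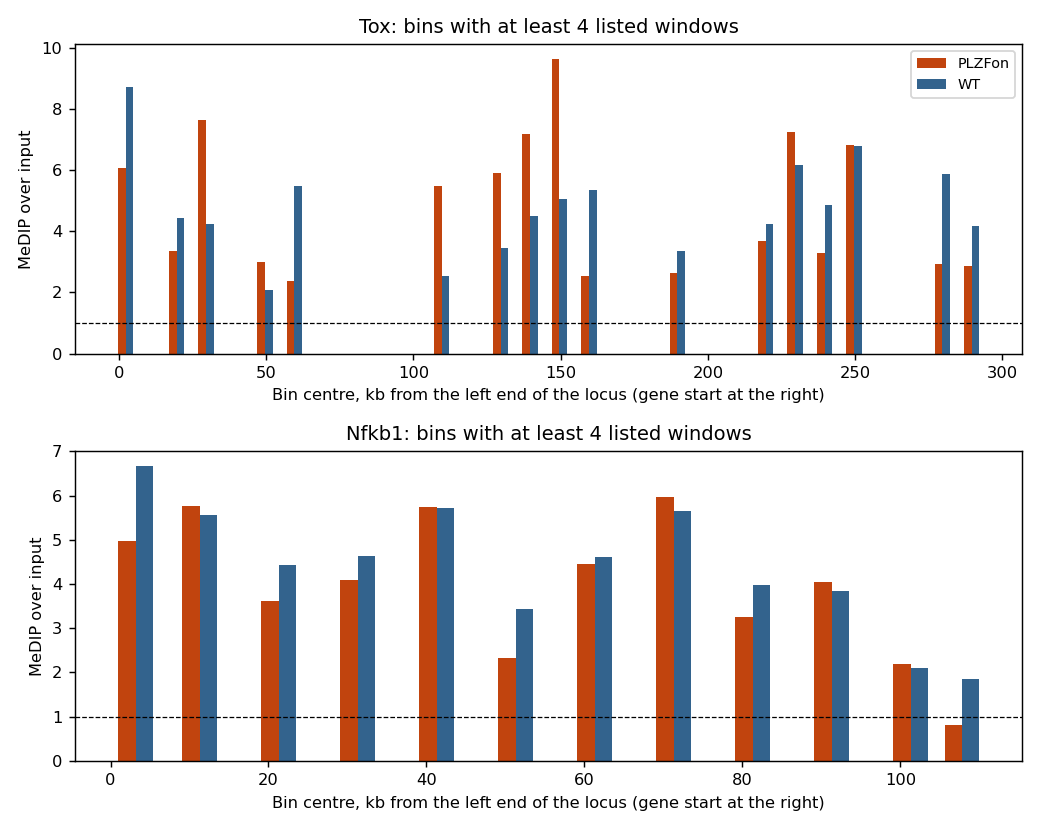
Depth-scaled MeDIP over input (y) in PLZFon (orange) and WT (blue) for 10 kb bins with at least 4 listed windows, by distance in kb from the left end of the locus (x), with the dashed line at 1. Bins under 20 MeDIP reads are included and no intervals are drawn. In Nfkb1 the bars are lowest at the gene start at the right, 0.806 in PLZFon (0.203 to 2.35) and 1.85 in WT (0.667 to 4.65), on 4 and 7.5 reads. In Tox the bars range up to 9.65 in PLZFon and 8.74 in WT.

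Window counts of the 2 MeDIP libraries followed each other loosely, with a Pearson r of 0.433 over the 142 Tox windows and 0.601 over the 271 Nfkb1 windows, against 0.844 over all listed windows. These are descriptions: neighbouring windows share reads, and counts near the listing minimum have a narrow range. Median counts were 5.5 in PLZFon and 8 in WT for Tox windows, and 7 and 10 for Nfkb1 windows.

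Other genes of the same pathways were taken from lists. Of 37 genes of the NF-κB pathway, Nfkb1 included, 15 lie in the range of the table and were tested, and 0 passed the locus rule in either direction (1.38% of all loci). Their median log2 ratio was -0.09, against -0.06 over all protein-coding loci. Bcl10, which links antigen receptors to the IκB kinase, was the highest at 1.36 (1.04 to 1.77), on 116 PLZFon and 121.5 WT reads. Nfkbib, an inhibitor that holds NF-κB in the cytoplasm, was the lowest at 0.718 (0.454 to 1.11). Traf2, an adaptor of the TNF receptors, had 0.759 (0.574 to 0.998). By the interval alone 1 of the 15 lay above equality and 1 below, where 1.24% of all loci lay above and 5.01% below. These 2 are too few to set a share against that. Relb, the other NF-κB subunit gene in range, had 0.961 (0.774 to 1.19).

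A list of 24 genes held Tox, its family, regulators and markers of the CD4 and CD8 lineages, and genes of calcineurin and NFAT signalling and the Nr4a family. Of these, 14 were in range and tested. Lef1 passed the rule as lower (326.2 PLZFon and 813.8 WT reads) and 0 passed as higher, where 0.991% of all loci passed as lower and 0.391% as higher. The list was chosen with earlier results of these data known, so the call of Lef1 is not a result about the list. The median log2 ratio of the list was -0.04, against -0.06 over all loci. Tox2, the family member in range, had 0.992 (0.908 to 1.08), on 848.5 PLZFon and 1217.5 WT reads. The highest was Gata3, a regulator of CD4 T cells, at 1.36 (0.78 to 2.38), and the lowest was Id3, an inhibitor of E proteins, at 0.532 (0.189 to 1.32) on 7 and 18.8 reads.

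By reads per listed window in the 4 libraries, the locus most like Tox among 3556 loci with at least 200 reads was Nup98 (distance 0.0582 on the log2 scale), followed by Epb41l5 (0.119) and Ubr1 (0.129). Tox had 0.624 RPM per listed window in PLZFon MeDIP and 0.622 in WT MeDIP, and 0.141 and 0.135 in the inputs. The loci most like Nfkb1 were Ptpn12 (0.0369), Orc5 (0.0565) and Lhpp (0.0568). Nfkb1 had 0.75 in PLZFon MeDIP, 0.756 in WT MeDIP, and 0.184 and 0.168 in the inputs.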

How the data were processed

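MeDIP and input DNA of sorted thymic NKT cells was sonicated to a median of 180 to 230 bp, per the labels' protocols. Per the submitters' processing notes, the tools were BWA and edgeR and the build mm10; versions are not given in the sources used here. The deposited table holds raw counts per 100 bp window for each library, RPKM values computed by the authors, a relative methylation score and a CpG factor score from the authors, and the authors' edgeR log2 fold changes (PLZFon over WT, by their sign against the counts) with deposited p-values. A further 6 columns of means carry no sample name and were not used. The table ends on chromosome 7 at 139972600.

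The library totals come from the sum of counts over the sum of RPKM. The scaled squared difference between input windows rose in even steps up to a distance of 4 windows (1.17 in PLZFon, 1.18 in WT) and little beyond (1.24 and 1.27 at 8), so a read was taken to span 4 windows. For MeDIP it rose up to 6 (5.62 and 7.44), so the number is less certain there. A read near the edge of a run of listed windows is counted in fewer, which understates reads in short runs. Ratios are depth-scaled, with exact (Clopper-Pearson) 95% intervals that cover counting error only. Ratios of 2 loci have exact intervals of the odds ratio. Bins were counted from position 1 of each chromosome. The bin rule was run on simulated counts that carry counting error only. That run says nothing of differences between replicate libraries. Gene positions are from RefSeq (GRCm38.p6, the same primary assembly as mm10), and all symbols of the lists matched. Named were the 3 highest and 3 lowest bins with at least 20 reads, bins with an interval that excludes equality, the windows with the most counts, the most CpG or the most extreme ratios, those nearest the gene start, the extreme list members and the 3 nearest loci by Euclidean distance. Other windows and stretches were named after their values were seen. The members and lists were chosen with earlier results of these data known. Tools were Python 3.11.15, pandas 2.3.3, scipy 1.17.1 and, for TMM factors, edgeR 4.0.16 in R 4.3.3.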

Additional observations from a re-analysis of the deposited data

How the results depend on the processing

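The locus ratios stayed within their intervals under 6 alternatives that could move them: 0.976 to 1.04 for Tox and 0.947 to 1.03 for Nfkb1. These were TMM factors, scaling by listed windows or within CpG classes, 2 other flanks and windows with at least 20 counts. Dividing sums by 2 or 8 changes intervals only, and neither locus has a window with at least 60 input counts to remove. The count of 1 Tox bin past the rule became 0 with 5 kb bins and with at least 40 reads per bin, settings that leave fewer reads or fewer bins to test. The count of 0 Nfkb1 bins did not move. With a minimum of 10 counts, which tests more windows, those past the rule went to 6 for Tox (5 higher and 1 lower), against 2 (1 and 1), and to 8 for Nfkb1 (5 higher and 3 lower), against 3 (0 and 3), where 2.96% of all windows passed, and to 0 in both with at least 30 counts, which tests fewer. Of the parts of Tox, alternatives chosen after seeing the data, the second (1.51) and the fourth (0.671) had intervals of 0.927 to 2.46 and 0.392 to 1.12 with sums divided by 8, which then include equality. Without their most different bin the ratios were 1.27 and 0.755. No paired analysis was possible because each group is 1 library. Depth limits what can be seen in Tox, where most bins hold under 40 reads.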
